A study of Mus musculus with 9 samples.

Results

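The interferon regulatory factors are a small family of transcription factors, and their genes were followed here through 9 RNA-seq libraries of transduced mouse bone marrow cells. The members were chosen by their gene symbol, Irf and a number. Reported here are 7 members, Irf1, Irf2, Irf3, Irf4, Irf5, Irf7 and Irf9, out of 55274 gene identifiers in each table of expression values, and Irf8 is not analysed here. Of these, 6 members, Irf1, Irf2, Irf3, Irf5, Irf7 and Irf9, reached 1 FPKM in at least 3 of the 9 libraries and were tested, while Irf4 stayed under that level and is given by its values. FPKM are fragment numbers divided by the length of the transcript and by the mapped fragments of the library, which allows for length and depth. They do not remove a shift shared by most genes of a library, and some calls below depend on how the libraries are scaled.

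There were 3 groups of 3 libraries, from cells carrying NRASG12D (a RAS protein held active by an amino acid change), NUP98-NSD1 (a fusion of a nuclear pore protein with a histone methyltransferase) or both, written NUP98-NSD1+NRASG12D. All cells came from bone marrow of female C57BL/6J mice aged 6 to 8 weeks, which had received 150 mg/kg of 5-fluorouracil 4 days before harvest, and had been kept for 48 h in 10 ng/mL of hIL-6, 6 ng/mL of mIL-3 and 20 ng/mL of mSCF. The oncogenes were carried by MSCV retroviral vectors with GFP (NUP98-NSD1) or BFP (NRASG12D), and marked cells were sorted and expanded before RNA was taken. No cells without an oncogene were among the groups, and the NRASG12D cells are described in the paper as mostly mast cells. The sources used here do not say whether the libraries of a group came from separate mice or cultures, so p-values measure the spread between these libraries, which may be technical.

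Interferon regulatory factors share a DNA-binding domain that reads repeats of the bases GAAA in the promoters of interferon genes and of genes that answer interferon. IRF3 and IRF7 are switched on by the kinases TBK1 and IKBKE after foreign nucleic acid is sensed, IRF5 acts below Toll-like receptors in macrophages and dendritic cells, and IRF9 is the DNA-binding subunit of a complex with STAT2 that answers type I interferon. IRF1 activates and IRF2 often opposes the same targets, and IRF4 and IRF8 act with PU.1 in lymphoid, monocyte and dendritic cells.

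Promoter sequence was at hand for all 7 members, from RefSeq on GRCm38.p6, in windows of 250 bases before to 50 bases after a start site, and 3 motifs were searched on both strands. These were the interferon regulatory factor element (GAAA, any 2 bases, GAAA), the GAS element bound by STAT proteins (TTC, any 3 bases, GAA), and the composite element bound by PU.1 with IRF4 or IRF8 (GGAA, any 2 bases, GAAA). The first was found in 3.44% of all 32851 windows, the second in 8.30% and the third in 2.72%. Among the members the first and the third were found only in the window of Irf2, where they overlap, and the second in the windows of Irf1 and Irf2. The parts of 4 windows before annotated exons are printed below, from the members with a match and from Irf5 and Irf7, the members whose levels differed most between the groups. Capitals mark the matches, and the stretches of Irf5 and Irf7 have none.
Irf1, chr11:53769764-53770013, plus strand: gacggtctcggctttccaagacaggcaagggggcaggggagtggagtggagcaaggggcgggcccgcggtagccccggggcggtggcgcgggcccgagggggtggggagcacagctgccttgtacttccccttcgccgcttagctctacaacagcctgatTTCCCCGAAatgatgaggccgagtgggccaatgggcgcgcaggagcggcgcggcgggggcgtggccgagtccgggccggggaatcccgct
Irf2, chr8:46739495-46739731, plus strand: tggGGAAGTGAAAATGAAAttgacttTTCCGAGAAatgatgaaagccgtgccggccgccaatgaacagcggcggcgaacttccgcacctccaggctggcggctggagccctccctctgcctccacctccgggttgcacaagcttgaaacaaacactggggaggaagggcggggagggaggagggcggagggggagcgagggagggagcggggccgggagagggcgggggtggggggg
Irf5, chr6:29526375-29526624, plus strand: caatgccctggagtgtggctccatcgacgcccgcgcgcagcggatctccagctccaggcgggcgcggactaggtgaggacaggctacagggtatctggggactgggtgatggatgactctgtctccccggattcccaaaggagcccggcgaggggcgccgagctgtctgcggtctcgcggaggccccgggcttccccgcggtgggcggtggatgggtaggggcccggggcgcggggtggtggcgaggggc
Irf7, chr7:141266482-141266674, minus strand: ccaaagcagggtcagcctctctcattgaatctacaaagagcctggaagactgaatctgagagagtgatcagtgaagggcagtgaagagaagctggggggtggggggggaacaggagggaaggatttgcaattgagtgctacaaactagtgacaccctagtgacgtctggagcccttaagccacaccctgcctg
The match in Irf1, TTCCCCGAA, begins at -90 from the start site, and in Irf2 the composite element begins at -247, the interferon regulatory factor element at -241 and the GAS element at -224. For comparison, the interferon regulatory factor element was present at 8 of the 15 type I interferon response genes with a window, 53.3%, and at 3.99% of all 27025 genes. A match is a run of letters and not a measured binding site, and the absence of a match says only that these letters are not in the window.

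The depth of the libraries, estimated from the size of the steps between low FPKM values, was 23300000 to 36800000 fragments. Nras, which the vector adds to, was at 47.7 to 51.2 FPKM in NUP98-NSD1 cells and at 245 to 701 FPKM in the 6 libraries with NRASG12D. Nup98 was at 9.12 to 11.1 FPKM in NRASG12D, 18.2 to 19.0 FPKM in NUP98-NSD1 and 11.9 to 20.2 FPKM in NUP98-NSD1+NRASG12D cells, and Nsd1 was at 11.7 to 14.7, 10.8 to 16.2 and 9.98 to 16.2 FPKM, with overlap of all 3 groups. Markers of cell types differed strongly between the groups. The summed FPKM of 10 mast cell markers was 36190.0 to 38297 in NRASG12D, 29111 to 35328 in NUP98-NSD1, and with both oncogenes 784 to 4713, although the mast cell protease gene Cpa3 was listed at 0 in all NRASG12D libraries. Without Cpa3, which was at 12564 to 14379 FPKM in NUP98-NSD1 cells, the sum of the other 9 was 36190.0 to 38297, 15698 to 20949 and 505 to 2892 FPKM. Mcpt4 and Hdc also rose, from means of 75.1 and 4.65 FPKM in NRASG12D to 440 and 107 FPKM in NUP98-NSD1 cells. In that comparison 3 of the 10 were called higher and 5 lower at an adjusted p under 0.05 (limma), as were 42.2% and 9.98% of all tested genes. Of the 10, Cpa3 was tested only because of its level in the other groups. For 9 neutrophil markers the sum was 2.72 to 15.3, 1354 to 5439 and 8436 to 18800.1 FPKM in the same order of groups, with Camp and Ltf at 0 in all NRASG12D libraries. For 6 monocyte and macrophage markers it was 44.7 to 59.2, 475 to 887 and 1730.4 to 4389 FPKM. B cell, T and NK cell and dendritic cell marker sums were at most 11.6 FPKM in every library. The sums of 3 basophil markers were 406 to 447, 858 to 1603 and 29.2 to 487 FPKM, and those of 4 erythroid markers 1.78 to 4.24, 26.2 to 63.2 and 3.55 to 37.5 FPKM. Within the basophil sum Cd200r3 fell from a mean of 380 FPKM in NRASG12D to 181 FPKM in NUP98-NSD1 cells, while the other 2 rose. In such bulk libraries, more RNA of a gene per cell and more cells of a type that uses it cannot be told apart, and the part of these cell types in the results below was not tested.

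Replicate 2 of NUP98-NSD1+NRASG12D was the highest of the 9 libraries for 5 of the 6 tested members, all but Irf3, where it was highest for 10.4% of all tested genes. It was also highest for 20 of 20 tested type I interferon response genes and for 12 of 18 genes linked to IRF1 and interferon gamma. Among the marker lists it was highest for 4 of 6 monocyte and macrophage markers, and its mast cell marker sum of 4713 FPKM was above those of the other libraries of its group, 1025 and 784 FPKM. Its monocyte and macrophage marker sum of 2817 FPKM lay below the 4389 FPKM of replicate 3. Its neutrophil marker sum of 8436 FPKM was the lowest of its group. The counts below are given without this library where they change, and the cause of its place was not tested.

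**Figure D1:**
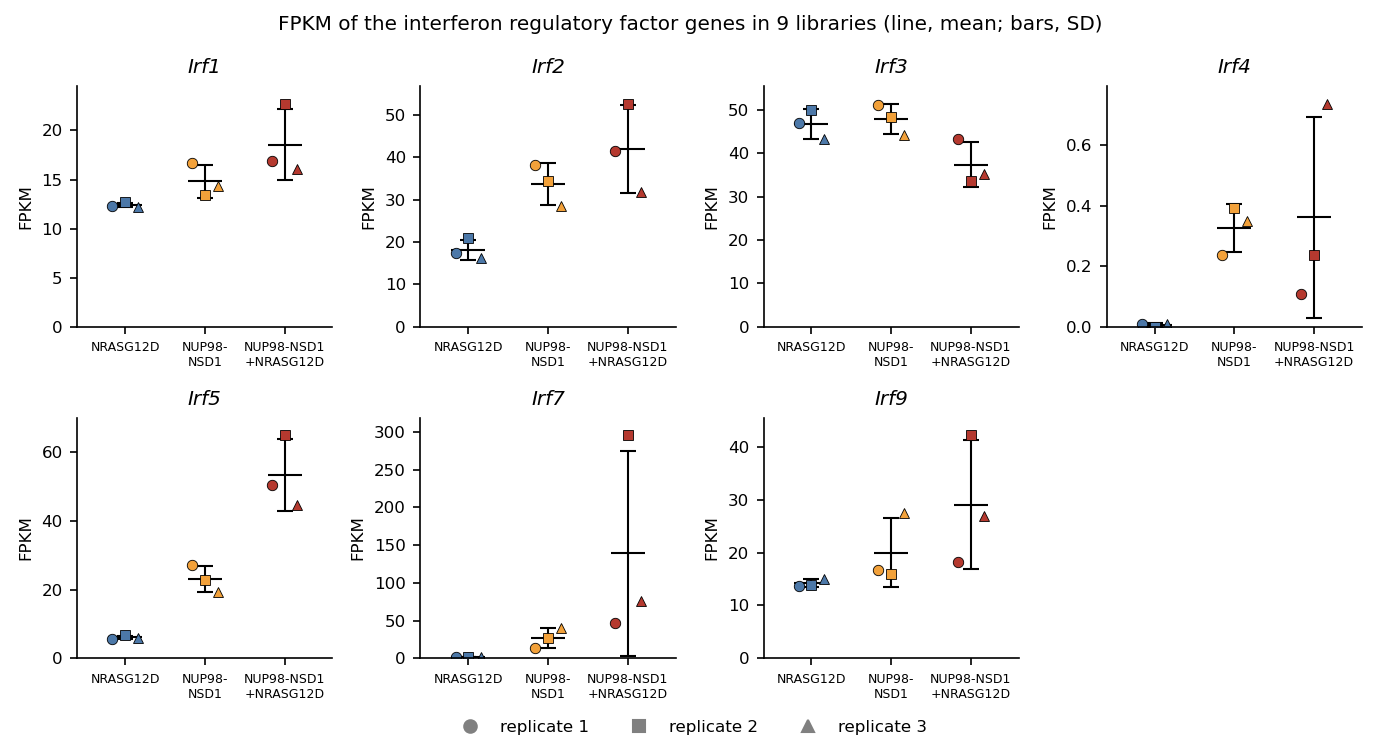
FPKM of the 7 members (vertical axes, linear, starting at 0, with a scale of its own for each gene) in the 3 groups, with a symbol for each library, the mean as a horizontal line and the SD as bars (n = 3). Irf5 and Irf7 are lowest in NRASG12D and highest in NUP98-NSD1+NRASG12D cells without overlap of the groups, Irf3 is lowest in NUP98-NSD1+NRASG12D cells, and replicate 2 of NUP98-NSD1+NRASG12D is the highest library for Irf1, Irf2, Irf5, Irf7 and Irf9.

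Irf7, which encodes the factor that amplifies the production of type I interferon, showed the widest range of the family. Irf7 (ENSMUSG00000025498.15, chr7:141262706-141266481, minus strand, protein coding) had 1.27, 1.78 and 1.42 FPKM in replicates 1 to 3 of NRASG12D, 13.9, 27.5 and 40.6 FPKM in NUP98-NSD1, and 46.3, 295 and 76.0 FPKM in NUP98-NSD1+NRASG12D cells. No library of a group overlapped with another group, and the NUP98-NSD1+NRASG12D libraries differed among themselves more than the NRASG12D and NUP98-NSD1 means did on the FPKM scale. The group means were 1.49 ± 0.265, 27.3 ± 13.4 and 139 ± 136 FPKM (SD, n = 3). In log2(FPKM + 1), Irf7 was higher by 3.39 (SE 0.342) in NUP98-NSD1 cells than in those with NRASG12D, with an adjusted p of 0.000766 (limma, Benjamini-Hochberg over 13493 genes). It was higher by 5.37 (SE 0.616) in NUP98-NSD1+NRASG12D than in NRASG12D cells (adjusted p = 0.000875). Both calls held in every alternative and in every fit without a library. Between NUP98-NSD1+NRASG12D and NUP98-NSD1 the difference was 1.98 (SE 0.698), which did not pass the threshold of 0.05 (adjusted p = 0.136) although the groups did not overlap. It passed when libraries were weighted by their fit (2.04, adjusted p = 0.0413), and without replicate 2 of NUP98-NSD1+NRASG12D it was 1.21.

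Irf5, the member acting below Toll-like receptors in phagocytes, was the only member that passed the test in all 3 comparisons. Irf5 (ENSMUSG00000029771.12, chr6:29526625-29541871, plus strand) had 5.74, 6.70 and 5.91 FPKM in NRASG12D, 27.1, 22.7 and 19.4 FPKM in NUP98-NSD1 and 50.6, 64.9 and 44.6 FPKM in NUP98-NSD1+NRASG12D cells. The 3 groups did not overlap, and the spread was widest in NUP98-NSD1+NRASG12D cells. The means were 6.12 ± 0.513, 23.1 ± 3.89 and 53.4 ± 10.4 FPKM (SD, n = 3), which is 3.77-fold higher in NUP98-NSD1 and 8.72-fold higher in NUP98-NSD1+NRASG12D than in NRASG12D cells. On the log2 scale it rose by 1.75 (SE 0.136, adjusted p = 0.000303) and by 2.92 (SE 0.179, adjusted p = 0.000101). The step from NUP98-NSD1 to NUP98-NSD1+NRASG12D was 1.17 (SE 0.202, adjusted p = 0.0196). This last call was lost without replicate 2 or replicate 3 of NUP98-NSD1 (adjusted p = 0.0881 and 0.0883) and without a filter on low values (0.109). Tnpo3 on the opposite strand shares 411 bases of exon, 14.1% of the exonic length of Irf5, and whether the counting used strand is not stated. Tnpo3 itself differed by at most 0.19 on the log2 scale in any comparison, without passing the test.

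Irf2, which holds back many targets of IRF1, was higher in both groups with NUP98-NSD1. Irf2 (ENSMUSG00000031627.9, chr8:46739732-46847458, plus strand) had 17.4, 20.9 and 16.2 FPKM in NRASG12D, 38.3, 34.4 and 28.4 FPKM in NUP98-NSD1 and 41.5, 52.6 and 31.9 FPKM in NUP98-NSD1+NRASG12D cells. All 6 libraries with the fusion lay above the 3 without it, and those 6 overlapped between their groups. The rise was 0.85 (SE 0.140, adjusted p = 0.00322) in NUP98-NSD1 and 1.15 (SE 0.213, adjusted p = 0.00623) in NUP98-NSD1+NRASG12D cells over NRASG12D cells on the log2 scale, and both calls held in every alternative and every fit without a library. The difference between the groups with the fusion was 0.29 (SE 0.220, adjusted p = 0.501).

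Irf1, an activator induced by interferon gamma, differed by smaller amounts than Irf2. Irf1 (ENSMUSG00000018899.16, chr11:53770014-53778374, plus strand) had 12.4, 12.7 and 12.2 FPKM in NRASG12D, 16.7, 13.5 and 14.3 FPKM in NUP98-NSD1 and 16.9, 22.7 and 16.05 FPKM in NUP98-NSD1+NRASG12D cells. The 3 NRASG12D libraries were close together and below all others, while the other groups overlapped. In NUP98-NSD1 over NRASG12D cells the difference was 0.23 (SE 0.102, adjusted p = 0.0924), and it turned to -0.08 after median-ratio scaling, in which each library is divided by the median ratio of its genes to their geometric mean over the libraries. In NUP98-NSD1+NRASG12D over NRASG12D cells it was 0.53 (SE 0.172, adjusted p = 0.0477), a call that was lost after median-ratio scaling (0.31, adjusted p = 0.259) and without replicate 2 of NUP98-NSD1+NRASG12D (0.38, adjusted p = 0.0602) or any NRASG12D library (adjusted p between 0.131 and 0.151). The ratio of Irf2 to Irf1 within a library, which does not depend on the scaling of libraries, was 1.32 to 1.65 in NRASG12D, 1.99 to 2.55 in NUP98-NSD1, and with both oncogenes 1.99 to 2.45. The NRASG12D libraries did not overlap with the others in this ratio, and the groups with the fusion overlapped.

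Irf9, the DNA-binding subunit of the complex with STAT2, had 13.7, 13.9 and 15.1 FPKM in NRASG12D, 16.7, 15.9 and 27.4 FPKM in NUP98-NSD1 and 18.2, 42.2 and 26.8 FPKM in NUP98-NSD1+NRASG12D cells (ENSMUSG00000002325.15, chr14:55603571-55610030, plus strand). The NRASG12D libraries were again the lowest, and single libraries of the other groups, replicate 3 of NUP98-NSD1 and replicate 2 of NUP98-NSD1+NRASG12D, stood above the rest of their group. The difference of NUP98-NSD1 from NRASG12D cells was 0.42 (SE 0.197, adjusted p = 0.110). That of NUP98-NSD1+NRASG12D from NRASG12D cells was 0.90 (SE 0.287, adjusted p = 0.0451), and it lost its call after median-ratio scaling (0.68, adjusted p = 0.169), without replicate 2 of NUP98-NSD1+NRASG12D (0.60, adjusted p = 0.0521), without replicate 3 of that group (0.92, adjusted p = 0.0947) and without any NRASG12D library (adjusted p between 0.112 and 0.124).

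Irf3, the factor that is present before infection and is switched on at the protein level, was the member with the highest mean in NRASG12D and NUP98-NSD1 cells and did not rise with the others. Irf3 (ENSMUSG00000003184.15, chr7:44997648-45002848, plus strand) had 47.0, 50.0 and 43.2 FPKM in NRASG12D, 51.1, 48.3 and 44.2 FPKM in NUP98-NSD1 and 43.2, 33.5 and 35.2 FPKM in NUP98-NSD1+NRASG12D cells. The first groups overlapped, and the NUP98-NSD1+NRASG12D libraries were the 3 lowest of the 9, though the highest of them and the lowest NRASG12D library were both at 43.2 FPKM. The difference was 0.03 (SE 0.0924, adjusted p = 0.780) for NUP98-NSD1 and -0.32 (SE 0.155, adjusted p = 0.136) for NUP98-NSD1+NRASG12D against NRASG12D cells, and -0.36 (SE 0.158, adjusted p = 0.225) between the groups with the fusion. The calls for Irf3 depended on the processing. After median-ratio scaling, Irf3 fell by 0.30 in NUP98-NSD1 (adjusted p = 0.0106) and by 0.56 in NUP98-NSD1+NRASG12D cells (adjusted p = 0.00654) against NRASG12D cells. With array weights it fell by 0.39 and by 0.45 in NUP98-NSD1+NRASG12D against NRASG12D and NUP98-NSD1 cells (adjusted p = 0.0360 and 0.0312), and without replicate 1 of NUP98-NSD1+NRASG12D by 0.43 and by 0.46 (adjusted p = 0.0268 and 0.0499).

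Irf4 was near the lower limit of the data. Irf4 (ENSMUSG00000021356.10, chr13:30749226-30766976, plus strand), a factor of lymphocytes and dendritic cells, had 0.00862, 0 and 0.00921 FPKM in NRASG12D, 0.239, 0.392 and 0.351 FPKM in NUP98-NSD1 and 0.110, 0.238 and 0.738 FPKM in NUP98-NSD1+NRASG12D cells. The NRASG12D libraries lay under the level that 3 fragments give, 0.0171 to 0.0270 FPKM, and all 6 libraries with the fusion lay above it. The NRASG12D libraries did not overlap with either other group, for which the two-sided exact permutation p is 0.1, the smallest that 3 against 3 libraries allow, and the groups with the fusion overlapped. Irf1, Irf3, Irf7 and Irf9 share 45 to 135 exonic bases with a neighbouring gene, Irf2 and Irf4 none. Bcl2l12, which shares 88 bases with Irf3 on the opposite strand, was higher by 0.44 in NUP98-NSD1 than in NRASG12D cells (limma, adjusted p = 0.00699). Transcripts were also compared in their own direction only, where no tested member but Irf9 (1.67%) had a stretch of 50 bases that occurs in another gene. Overlaps with genes on the opposite strand, such as that of Irf5 with Tnpo3, are not seen in this way.

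**Figure D2:**
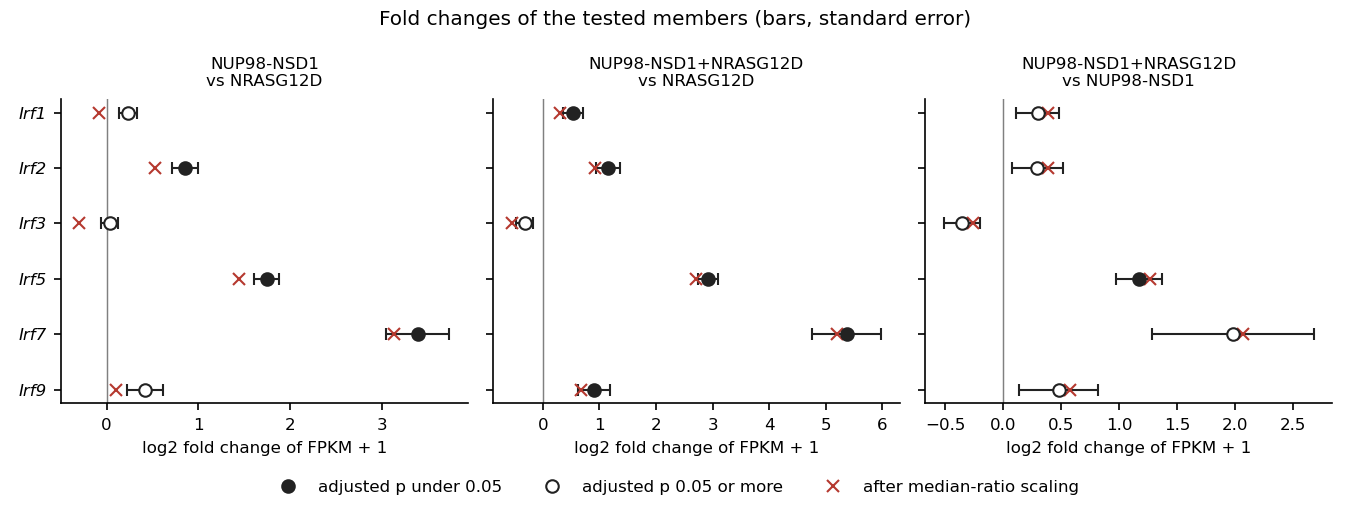
Differences in log2(FPKM + 1) between pairs of groups (horizontal axis) for the 6 tested members, with the SE as bars, filled points where the adjusted p was under 0.05, and crosses for the values after median-ratio scaling. Irf5 and Irf7 are far to the right against NRASG12D cells under both scalings, and the cross of Irf3 lies left of 0 in all 3 panels.

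Counted over the family, 3 of the 6 tested members were higher in NUP98-NSD1 than in NRASG12D cells, Irf2, Irf5 and Irf7, and none was lower, also at an unadjusted p under 0.05 (limma, 0 members), where 52.1% of all tested genes passed the test and 42.2% passed as higher and 9.98% as lower. In NUP98-NSD1+NRASG12D against NRASG12D cells 5 members were higher, all but Irf3, where 38.3% of all genes passed and 24.2% passed as higher and 14.1% as lower. Without replicate 2 of NUP98-NSD1+NRASG12D, or without any NRASG12D library, 3 members passed, Irf2, Irf5 and Irf7. Between the groups with the fusion 1 member, Irf5, was higher in NUP98-NSD1+NRASG12D cells, where 8.61% of all genes passed and 2.30% passed as higher and 6.31% as lower. The comparisons share their groups, so these counts are not independent of each other. The groups did not overlap for 5, 6 and 3 of the 6 members in the 3 comparisons, against 64.2%, 58.6% and 31.4% of all tested genes. The median difference of the 6 members was 0.64, 1.02 and 0.39 on the log2 scale, and that of all tested genes 0.27, 0.23 and -0.06. Without replicate 2 of NUP98-NSD1+NRASG12D the third median of the members was 0.16. Median-ratio scaling moved the median of all tested genes to -0.01, 0.03 and 0.03. With it the share of higher among all called genes went from 80.9% to 49.3% where NUP98-NSD1 was compared with NRASG12D. Where NUP98-NSD1+NRASG12D was compared with NRASG12D, that share went from 63.1% to 50.9%. Under that scaling Irf2, Irf5 and Irf7 passed as higher and Irf3 as lower in both comparisons with NRASG12D cells. Of all 13493 genes 3059 then passed as higher and 3146 as lower in the first of these, and 2665 and 2574 in the second.

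The make-up of the family by FPKM differed between the groups. The summed FPKM of the 7 members was 94.1 to 106 in NRASG12D, 163 to 175 in NUP98-NSD1 and 217, 512 and 231 in NUP98-NSD1+NRASG12D cells. Irf3 took 45.9% to 48.2% of that sum in NRASG12D, 25.3% to 31.2% in NUP98-NSD1 and 19.9%, 6.55% and 15.2% in NUP98-NSD1+NRASG12D cells. Irf7 took 1.30% to 1.68%, then 8.47% to 23.3%, and then 21.4%, 57.8% and 32.9% in the same groups. So the most abundant member was Irf3 in each NRASG12D and NUP98-NSD1 library, Irf5 in replicate 1 and Irf7 in replicates 2 and 3 of NUP98-NSD1+NRASG12D. In the order of mean levels, the members of NRASG12D cells stood apart from their neighbours without overlap, from Irf3 through Irf2, Irf9, Irf1, Irf5 and Irf7 to Irf4. In NUP98-NSD1 cells the ranges of neighbours overlapped along the order Irf2, Irf7, Irf5, Irf9 and Irf1, and in NUP98-NSD1+NRASG12D cells along the order Irf7, Irf5, Irf2, Irf3, Irf9 and Irf1. In both groups Irf4 lay below Irf1 without overlap, and in NUP98-NSD1 cells Irf3 lay above Irf2 without overlap. Within a library Irf7 was at 0.0270 to 0.0356 of the level of Irf3 in NRASG12D, at 0.272 to 0.919 in NUP98-NSD1 and at 1.07, 8.82 and 2.16 in NUP98-NSD1+NRASG12D cells.

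**Figure D3:**
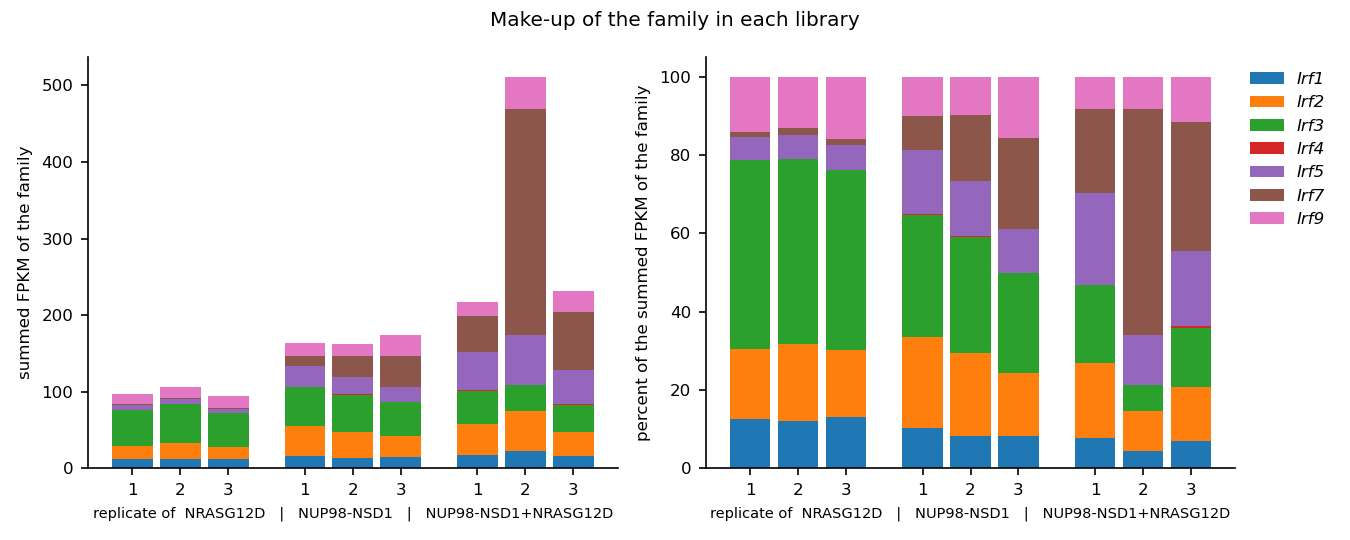
Summed FPKM of the 7 members in each library (left, linear axis starting at 0) and their percent of that sum (right), stacked by member. Irf3 takes 45.9% or more in each NRASG12D library, and Irf7 takes 57.8% in replicate 2 of NUP98-NSD1+NRASG12D.

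The genes around the family were taken in lists, ordered here from receptors to targets. Interferons themselves were hardly seen. Of 20 interferon genes none passed the filter, and the highest value was 0.457 FPKM, of Ifnb1, the gene of interferon beta. Ifnb1 was listed at 0 in the 3 NRASG12D libraries, where 3 fragments would give 0.109 to 0.172 FPKM, at 0.0541, 0.181 and 0.0663 FPKM in NUP98-NSD1 and at 0.169, 0.457 and 0.0692 FPKM in NUP98-NSD1+NRASG12D cells. Only replicate 2 of NUP98-NSD1 and replicates 1 and 2 of NUP98-NSD1+NRASG12D were above the level of 3 fragments in their library. Ifng, the gene of interferon gamma, reached at most 0.0804 FPKM.

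Of 11 tested genes of interferon receptors and JAK-STAT signalling, 5 were higher and 1 was lower when NUP98-NSD1 was compared with NRASG12D cells, and 5 were higher and 2 lower in NUP98-NSD1+NRASG12D than in NRASG12D cells, with medians of 0.34 and 1.07 on the log2 scale. Of all tested genes 42.2% and 24.2% were higher in these comparisons. After median-ratio scaling 5 were higher and 3 lower in the first, where the median was 0.01, and without replicate 2 of NRASG12D that median was 0.18. Ifngr2, a chain of the interferon gamma receptor, went from 4.38, 4.57 and 2.65 FPKM in NRASG12D to 45.6, 37.4 and 19.3 FPKM in NUP98-NSD1 and 67.8, 93.5 and 86.8 FPKM in NUP98-NSD1+NRASG12D cells. It rose by 2.79 and 4.12 on the log2 scale (adjusted p = 0.00111 and 6.19e-05), and Ifngr1, the other chain, rose by 1.94 and 3.10 (adjusted p = 0.00161 and 0.000151). The NUP98-NSD1+NRASG12D libraries were above those of NUP98-NSD1 without overlap for both chains, without passing the test (adjusted p = 0.0513 and 0.0734), and after median-ratio scaling Ifngr1 passed (adjusted p = 0.0416), as did Ifnar2, a chain of the type I interferon receptor (adjusted p = 0.0361). Jak1 and Jak2, kinases bound to these receptors, differed by at most 0.23 in any comparison and did not pass, but after median-ratio scaling Jak1 was at -0.38 in NUP98-NSD1 against NRASG12D cells (adjusted p = 0.00651) and Jak2 was at -0.02. Socs1, an inhibitor of JAK kinases, moved the other way. It had 116, 101 and 112 FPKM in NRASG12D, 72.9, 69.4 and 71.6 FPKM in NUP98-NSD1 and 9.80, 30.8 and 13.2 FPKM in NUP98-NSD1+NRASG12D cells, and it fell in all 3 comparisons (-0.61, -2.703 and -2.09, adjusted p = 0.00167, 0.00189 and 0.0224), the last of which was lost after median-ratio scaling (adjusted p = 0.0504). Ptpn2, a phosphatase that acts on JAK and STAT proteins, fell in NUP98-NSD1+NRASG12D cells by 0.92 against NRASG12D (adjusted p = 0.0129) and by 1.26 against NUP98-NSD1 cells (adjusted p = 0.00940). Between the groups with the fusion, 2.30% of all tested genes passed as higher and 6.31% as lower. Socs1 and Ptpn2 were the 2 genes of this list that passed there, both as lower, while with all 9 libraries in 1 fit 4 were higher and 2 lower. That count was 3 higher and 2 lower without replicate 1 of NUP98-NSD1+NRASG12D, 1 lower without replicate 3 of that group or without replicate 1 or 3 of NUP98-NSD1, and 0 without replicate 2 of NUP98-NSD1 (limma, 4 higher and 2 lower at an unadjusted p under 0.05). The chains of the type I interferon receptor and Stat2, a partner of IRF9, were named with their values already known. Ifnar1 rose by 0.63 and 1.22 against NRASG12D cells (adjusted p = 0.0047 and 0.00179), and Ifnar2 rose by 0.80 and 1.37 (adjusted p = 0.00258 and 0.000517). Stat2 had 12.3, 13.8 and 13.2, then 9.49, 11.1 and 15.6, then 11.9, 76.4 and 24.6 FPKM in the 3 groups, and did not pass in any comparison (adjusted p from 0.183 to 0.531).

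Of 19 tested sensors, adaptors and kinases that act upstream of the family, 10 were higher in NUP98-NSD1 and 10 in NUP98-NSD1+NRASG12D than in NRASG12D cells with medians of 0.37 and 0.53, where 42.2% and 24.2% of all tested genes were higher. None was lower, also at an unadjusted p (0 genes). Zbp1, Tlr7 and Dhx58 were under 1 FPKM in each NRASG12D library and passed the filter only through the other groups. After median-ratio scaling 7 were higher and 2 lower in the first and 8 were higher and 1 lower in the second comparison, with medians of 0.04 and 0.30. Among all 13493 tested genes 3059 were then higher and 3146 lower in the first, and 2665 and 2574 in the second. With all 9 libraries in 1 fit 4 of the 19 were higher in the first. Zbp1, a sensor of left-handed nucleic acid, differed most. It had 0, 0.416 and 0.0231 FPKM in NRASG12D, 7.41, 9.98 and 14.8 FPKM in NUP98-NSD1 and 30.3, 127 and 56.0 FPKM in NUP98-NSD1+NRASG12D cells, and it rose in all 3 comparisons (adjusted p = 0.000274, 0.000254 and 0.0334), the last of which was lost after median-ratio scaling (adjusted p = 0.0575). Unc93b1, which carries Toll-like receptors to endosomes, had 3.88, 12.1 and 4.22 FPKM, then 77.8, 62.4 and 49.9 FPKM, then 157, 215 and 184 FPKM in the 3 groups. It rose by 3.19, 4.74 and 1.55 (adjusted p = 0.00123, 0.000230 and 0.0107). Between the groups with the fusion, where 2.30% of all tested genes passed as higher, Unc93b1 and Zbp1 were the 2 genes of this list that passed. That count was 6 with all 9 libraries in 1 fit, 3 with the replicate block, 7 without replicate 1 of NUP98-NSD1+NRASG12D and 0 without replicate 2 of NUP98-NSD1 (limma, 6 at an unadjusted p under 0.05), and 1 without replicate 3 of NUP98-NSD1+NRASG12D or replicate 1 or 3 of NUP98-NSD1. Tlr7, a receptor for single-stranded RNA, rose by 1.57 and 3.18, and the cytosolic RNA receptor genes Ifih1 and Dhx58 rose by 1.62 and 2.81 and by 2.23 and 4.15 against NRASG12D cells (adjusted p at most 0.00515). The adaptor Mavs differed by at most 0.03 in any comparison, and by -0.28 in NUP98-NSD1 against NRASG12D cells after median-ratio scaling, without passing (adjusted p = 0.0738). Of the kinases that act on IRF3 and IRF7, named here for that role, Ikbke rose by 0.72 and 1.84 (adjusted p = 0.0122 and 0.00221), and Tbk1 was at 30.4 to 41.2, 29.2 to 32.5 and 25.8 to 42.8 FPKM in the 3 groups, which overlapped. After median-ratio scaling Tbk1 was lower in NUP98-NSD1 than NRASG12D cells (-0.50, adjusted p = 0.0121).

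Of 8 tested partners and co-regulators, 3 were higher in NUP98-NSD1 cells than in those with NRASG12D, and 2 were higher and 1 was lower in NUP98-NSD1+NRASG12D than in NRASG12D cells, with medians of 0.09 and 0.11, below those of all genes, of which 42.2% and 24.2% were higher. After median-ratio scaling 2 were higher and 3 lower in the first comparison, with a median of -0.22. The count of higher genes there was 2 with all 9 libraries in 1 fit, and also without replicate 3 of NRASG12D or replicate 1 or 2 of NUP98-NSD1. Spi1, the gene of PU.1, had 76.4, 81.3 and 72.6 FPKM in NRASG12D, 192, 157 and 108 FPKM in NUP98-NSD1 and 269, 235 and 274 FPKM in NUP98-NSD1+NRASG12D cells. It rose by 0.94 and 1.74 against NRASG12D cells (adjusted p = 0.00745 and 0.000248), and Batf3, a partner of IRF8 and IRF4 in dendritic cells, rose by 1.36 and 1.54 (adjusted p = 0.00544 and 0.000865) from at most 0.0844 FPKM. Batf3 passed the filter only through the groups with the fusion, which favoured a higher call and hardly allowed a lower one. Batf fell by 0.59 in NUP98-NSD1+NRASG12D against NRASG12D cells (adjusted p = 0.0243), and Irf2bp1, a co-repressor of IRF2, rose by 0.49 in NUP98-NSD1 cells (adjusted p = 0.0174), which was lost after median-ratio scaling (adjusted p = 0.105). Irf2bpl differed by at most 0.07 in any comparison, and by -0.33 in NUP98-NSD1 against NRASG12D cells after median-ratio scaling (adjusted p = 0.0534). The acetyltransferase gene Ep300 was at -0.50 in both comparisons with NRASG12D cells, without passing the test (adjusted p = 0.108 and 0.112), and passed in the first after median-ratio scaling (-0.80, adjusted p = 0.0454).

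**Figure D4:**
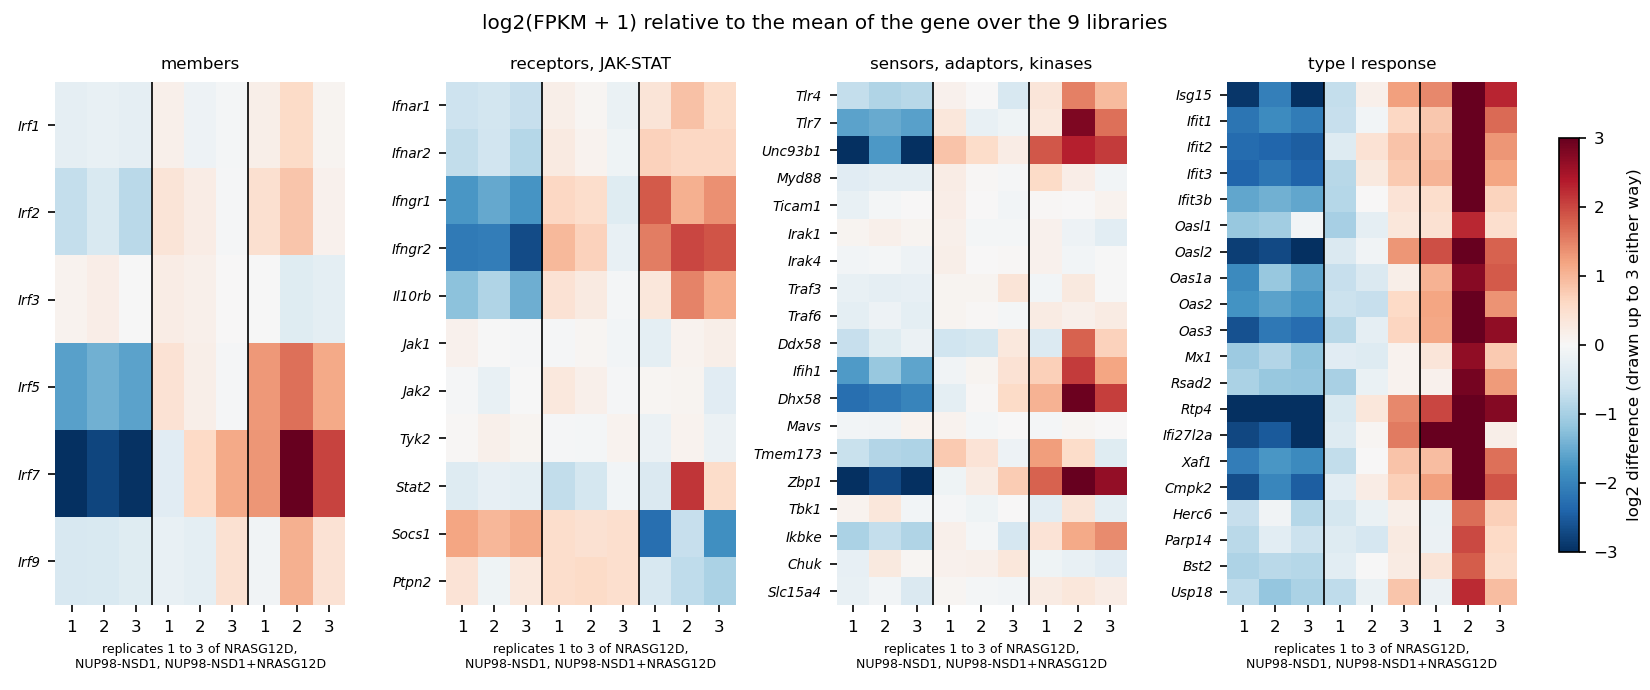
log2(FPKM + 1) of the tested members and of tested genes of 3 lists in each library, relative to the mean of the gene over the 9 libraries (colour scale cut at 3 either way). The type I response genes are low in the 3 NRASG12D libraries, and all 20 have their highest value in replicate 2 of NUP98-NSD1+NRASG12D.

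The type I interferon response genes, the usual targets of IRF7 and of the complex with IRF9, were higher in most cases. Of 20 tested genes 15 were higher in NUP98-NSD1 and 18 in NUP98-NSD1+NRASG12D than in NRASG12D cells, and none was lower, also at an unadjusted p (0 genes), with medians of 1.72 and 3.74. Of all tested genes 42.2% and 24.2% were higher. Ifit1, Ifit2, Ifit3, Ifit3b, Oasl2, Oas2, Oas3, Mx1, Rsad2, Rtp4 and Cmpk2 were under 1 FPKM in each NRASG12D library. They passed the filter only through the other groups, so for them the filter favoured a higher call and hardly allowed a lower one. The counts of higher genes were 15 and 16 after median-ratio scaling, where 3059 and 2665 of all 13493 tested genes were higher. They were 8 and 20 with all 9 libraries in 1 fit. Without 1 library the first ranged from 15 to 17 and the second from 13, without replicate 1 of NRASG12D, to 20, without replicate 1 of NUP98-NSD1+NRASG12D. Rtp4, which assists the surface transport of receptors, had 0.0279, 0.331 and 0.123 FPKM in NRASG12D, 7.86, 14.4 and 31.9 FPKM in NUP98-NSD1 and 47.2, 199 and 80.8 FPKM in NUP98-NSD1+NRASG12D cells. It rose by 3.84 and 6.32 (adjusted p = 0.00104 and 0.000188), Isg15, a modifier attached to proteins, by 2.97 and 5.29 (adjusted p = 0.00385 and 0.000976), and Oasl2, an antiviral gene of the oligoadenylate synthetase family, by 3.11 and 5.41 (adjusted p = 0.00181 and 0.000629). Herc6, the gene of a ligase for ISG15, was at 0.37 and 1.28 and did not pass (adjusted p = 0.242 and 0.0652). Between the groups with the fusion the median was 1.89 and 16 of the 20 genes had groups without overlap, against 31.4% of all tested genes. But 1 of the 20 passed, where 2.30% of all tested genes passed as higher. This was Oas1a, which rose by 2.18 (adjusted p = 0.0303). That call was lost after median-ratio scaling, where none of the 20 passed (limma, 11 at an unadjusted p under 0.05), and 57.6% of the 50-base stretches of Oas1a also occur in Oas1g. Oas3 had the largest difference there, 2.64, without passing (adjusted p = 0.0546). The count of 1 was 8 with all 9 libraries in 1 fit, 5 with the replicate block, 9 without replicate 1 and 1 without replicate 2 of NUP98-NSD1+NRASG12D, and 0 without replicate 3 of that group or any 1 of the NUP98-NSD1 libraries (7 to 14 at an unadjusted p under 0.05).

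The genes linked to IRF1 and interferon gamma had smaller medians. Of 18 tested genes 13 were higher in NUP98-NSD1 and 11 in NUP98-NSD1+NRASG12D than in NRASG12D cells and none was lower (1 gene in each at an unadjusted p under 0.05), with medians of 0.71 and 1.31, where 42.2% and 24.2% of all tested genes were higher. Gbp3, Cxcl10, Nlrc5 and Ciita were under 1 FPKM in each NRASG12D library and passed the filter only through the other groups. For them the filter favoured a higher call and hardly allowed a lower one. With all 9 libraries in 1 fit 6 of the 18 were higher in the first comparison, and 7, 7 and 6 were higher in the second without replicate 1, 2 or 3 of NRASG12D. After median-ratio scaling 8 were higher and 4 lower in the first and 8 were higher and 1 lower in the second comparison. Gbp3, a guanylate-binding protein gene, had 0.408, 0.851 and 0.462 FPKM in NRASG12D, 4.40, 3.43 and 4.43 FPKM in NUP98-NSD1 and 10.3, 25.1 and 10.4 FPKM in NUP98-NSD1+NRASG12D cells. It rose in all 3 comparisons, by 1.70, 3.26 and 1.56 (adjusted p = 0.00059, 0.000654 and 0.0394), the last of which was lost after median-ratio scaling. Cxcl10, the gene of a chemokine that attracts T cells, rose by 1.12 and 2.95 (adjusted p = 0.00196 and 0.00325), and Psmb9, an immunoproteasome subunit, rose by 1.41 and 2.05 (adjusted p = 0.00293 and 0.00274). Tap1, part of the peptide transporter, rose by 0.72 and 1.03 (adjusted p = 0.0042 and 0.0341), whereas Tap2 was at -0.08 and -0.51 and did not pass (adjusted p = 0.626 and 0.0821). Cd274, the gene of PD-L1, differed by -0.36 and 0.01 (adjusted p = 0.0802 and 0.996). After median-ratio scaling Tap1 lost its second call, Tap2 fell in both comparisons (-0.42 and -0.75, adjusted p = 0.0257 and 0.0376) and Cd274 fell in the first (-0.67, adjusted p = 0.0124).

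Genes of monocytes and dendritic cells that are linked to IRF8 and PU.1 went both ways. Of 9 tested genes 5 were higher and 1 was lower when NUP98-NSD1 was compared with NRASG12D cells, and 4 were higher and 2 lower in NUP98-NSD1+NRASG12D than in NRASG12D cells, with medians of 0.44 and 0.09, where 42.2% and 24.2% of all tested genes were higher. After median-ratio scaling 3 were higher and 3 lower in the first comparison, with a median of 0.11, and the median was -0.15 in the second. The latter was 0.38 without replicate 3 of NUP98-NSD1+NRASG12D. Ctss, a lysosomal protease of antigen-presenting cells, had 0.791, 4.21 and 1.20 FPKM in NRASG12D, 138, 137 and 168 FPKM in NUP98-NSD1 and 363, 1630.2 and 383 FPKM in NUP98-NSD1+NRASG12D cells. Csf1r, the receptor of macrophages for their growth factor, and Cybb, a subunit of the phagocyte oxidase, rose by 4.58 and 6.00 and by 4.54 and 6.35 against NRASG12D cells (adjusted p at most 0.000183). Cybb was under 1 FPKM in each NRASG12D library and passed the filter only through the other groups, which favoured a higher call. Cybb also rose by 1.81 between the groups with the fusion (adjusted p = 0.0300), which was lost after median-ratio scaling (adjusted p = 0.0509). Cx3cr1 fell in NUP98-NSD1+NRASG12D cells by 2.15 against NRASG12D and by 1.65 against NUP98-NSD1 cells (adjusted p = 0.002 and 0.0136), and Cst3 differed by at most 0.09 in any comparison, but by -0.32 in NUP98-NSD1 against NRASG12D cells after median-ratio scaling (adjusted p = 0.0148). Naaa, an acid amidase gene, rose by 0.44 in NUP98-NSD1 against NRASG12D cells (adjusted p = 0.0109), which was also lost under that scaling (adjusted p = 0.424). Beside these values stand the monocyte and macrophage marker sums given above, whose 6 markers were all higher in both comparisons with NRASG12D cells, and their part in them was not tested. Of these markers Mrc1 was under 1 FPKM in each NRASG12D library and passed the filter only through the other groups.

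**Figure D5:**
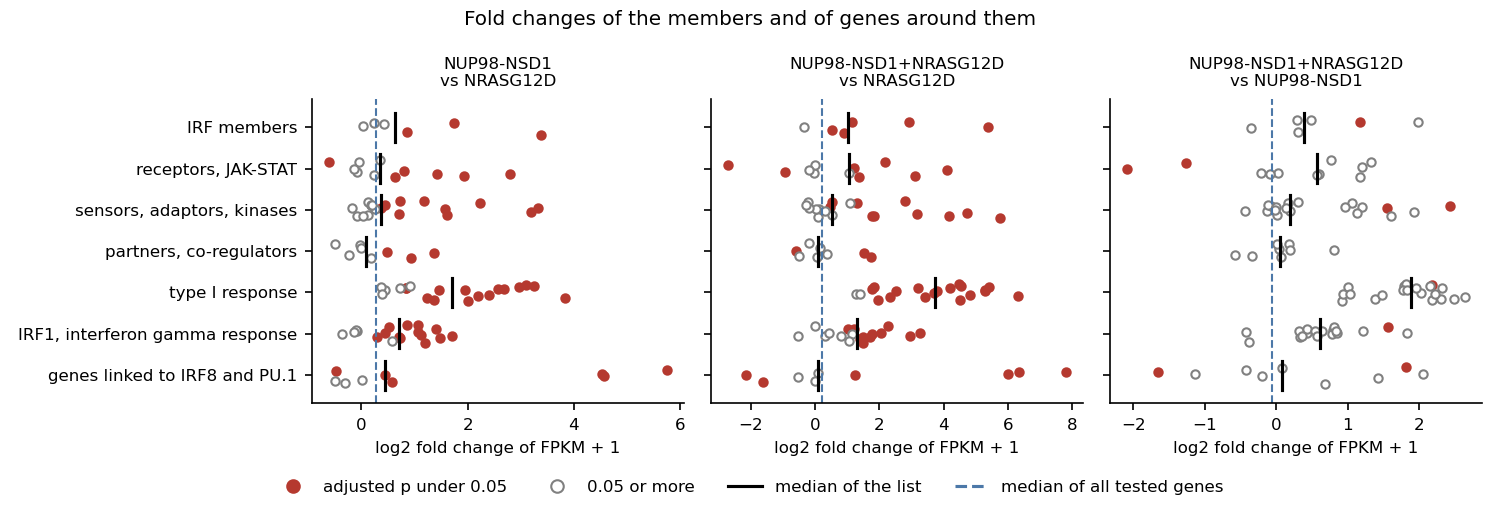
Differences in log2(FPKM + 1) (horizontal axes) of the tested members and of the tested genes of 6 lists in the 3 comparisons, with a point for each gene, filled where the adjusted p was under 0.05, the median of the list as a black line and that of all tested genes as a dashed line. The median of the type I response list is at 1.72, 3.74 and 1.89 and that of the partners at 0.09, 0.11 and 0.05.

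Without replicate 2 of NUP98-NSD1+NRASG12D, the comparison of that group with NRASG12D cells gave 5 higher and 2 lower genes among receptors and JAK-STAT genes with a median of 0.37, 8 higher sensors with a median of 0.55, and 2 higher and 2 lower partners with a median of 0.09. It gave 18 higher type I response genes with a median of 3.10, 13 higher genes of the interferon gamma list with a median of 0.96, and 4 higher and 2 lower genes of the IRF8 list with a median of -0.02. Against NUP98-NSD1 cells the median of the type I response genes was then 1.15, with 1 gene higher, and 3 genes of the IRF8 list were higher and 2 lower, in place of 1 and 1. The share of all tested genes in this single fit is not given here. Over the fits without a library, 2941 to 6327 of all 13493 genes passed against NRASG12D cells, in place of 5173. Against NUP98-NSD1 cells 283 to 2509 passed, in place of 1162.

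Likeness to a member was measured as the root mean square difference of profiles over the 9 libraries, each centred and scaled to its own SD, so that a smaller value means a more alike pattern. The libraries share 3 groups and their depth, so the values are a description. For Irf7 the nearest of the tested genes were Cmpk2 (0.0966), Rtp4 (0.112) and Ifih1 (0.123), and for Irf9 they included Usp18 (0.201) and Shisa5 (0.220). For Irf5 they were Kcnk13 (0.0850), Mefv (0.0971) and Tmsb10 (0.0971), for Irf2 they included Nudt9 (0.144) and Kctd12 (0.160), and for Irf1 they were Trim30c (0.175), Tlr8 (0.228) and Itsn1 (0.231). The nearest genes to Irf3 were Swap70 (0.215), Rab11b (0.225) and Gm7285 (0.241). The members were not each other's nearest genes. Irf5 stood at rank 152 of likeness to Irf7 with 0.317, Irf7 at rank 150 to Irf9 with 0.498 and Irf5 at rank 114 to Irf2 with 0.316, and Irf3 stood at rank 10633 or beyond to each of the other 5.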

How the data were processed

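RNA of the cultures was sequenced in paired-end reads of 50 bases. According to the paper's methods and the submitters' processing notes, the authors aligned the reads to GRCm38.p6 with STAR 2.7.2a and the GENCODE annotation and quantified genes with Cufflinks 2.2.1. The authors deposited FPKM values for each gene and library, and strand-specific counting and the handling of reads with several alignments are not given in the sources used here. The methods also name DESeq2 on counts, which was not run on FPKM.

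Groups and replicate numbers were taken from the sample labels. Repeated lines of an identifier were added up (55330 lines, 55274 identifiers). The filter asked for 1 FPKM or more in 3 or more libraries, and each pair of groups was fitted on its 6 libraries as log2(FPKM + 1) with limma 3.58.1 in R 4.3.3 (eBayes with a variance trend, no block), with Benjamini-Hochberg adjustment over all 13493 genes and a threshold of 0.05. Differences on this scale understate the change of low genes. The fit was tested on simulated data. Depth was estimated from the FPKM steps of 3386 long genes with a single transcript, 85.1% to 88.1% of whose low values fell on whole steps within 0.05 of a step, and floors of 3 fragments cover counting error only. Coordinates are those of the tables on GRCm38.p6, counted from 1, and exon overlaps come from GENCODE M21. For the member under the filter a two-sided exact permutation test over libraries was used. The labels name no batch.

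The members and the lists were chosen with earlier results of these data known. Of each list up to 6 genes are named, those with the largest and smallest absolute difference in a comparison and those that passed with groups that did not overlap, and of each tested member up to 3 of the nearest genes. Some genes are not reported here and were left out of the members, lists and nearest genes. Ifnar1, Ifnar2, Stat2, Ikbke and Tbk1 were added for their role. Alternatives were other pseudocounts, filters, scalings and weights, a replicate block and leaving out each library in turn, and the list counts were repeated with median-ratio scaling, a replicate block, all 9 libraries in 1 fit and each library left out, which was added after seeing the data. Python 3.11.15, numpy 2.4.6, pandas 2.3.3, scipy 1.17.1 and matplotlib 3.10.9 were used.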

Additional observations from a re-analysis of the deposited data

How the results depend on the processing

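The differences of the 6 tested members in the 3 comparisons kept direction and side of the threshold in 237 of 270 refits, with 20 falling under the threshold, 7 passing it and 6 changing sign. The changes of sign were in NUP98-NSD1 against NRASG12D cells. Irf1 went from 0.23 to -0.08 with median-ratio scaling and to -0.08 with quantile normalization (-0.0819 and -0.0793), and Irf3 from 0.03 to -0.30 and -0.28, which passed the test, and to -0.0206 and -0.0141 without NRASG12D replicate 3 or NUP98-NSD1 replicate 1. Without a library Irf3 ranged from -0.0206 to 0.0890 there. The causes of these changes were not tested.

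Members past the threshold numbered 3 without any filter on low values in NUP98-NSD1+NRASG12D against NRASG12D cells, in place of 5, and 0 without a filter and 3 with array weights between the groups with the fusion, in place of 1. Without a filter more genes are tested. In fits without a library the counts ranged from 3 to 3, from 3 to 6 and from 0 to 2 in the 3 comparisons. In the limma fits between the groups with the fusion that called 0 members, those without a filter and without NUP98-NSD1 replicate 2 or 3, 2, 2 and 2 members had an unadjusted p under 0.05. Genes past the threshold over the whole table were 3065 with all 9 libraries in 1 fit, in place of 7036, for NUP98-NSD1 against NRASG12D. Between the groups with the fusion they were 169 without a filter, 2251 with all 9 libraries in 1 fit and 3500 with array weights, in place of 1162. Without a library they ranged from 4736 to 7948, from 2941 to 6327 and from 283 to 2509. A lone pair of libraries in a group is assumed to vary like the others in such fits.

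The replicate numbers do not pair the libraries by the sources used here, and after group means were removed same-numbered libraries correlated between -0.177 and 0.16. With the replicate number as a block, 3, 4 and 1 members passed, and Irf1 lost its call in NUP98-NSD1+NRASG12D against NRASG12D cells (adjusted p = 0.0856).

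FPKM keep no counts, so no count model was run. Depth limits Irf4 in the NRASG12D libraries and most values of the interferon genes, which lay under the level of 3 fragments.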
